A study of Mus musculus with 12 samples.

Results

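*Zbtb46*, *Batf3*, *Irf8*, *Irf4*, *Maf*, *Cebpb*, *Cebpe*, *Spi1*, and *Klf4*, 9 transcription factor genes that direct the fates of myeloid cells, were read across the myeloid cells of PyMT breast tumors. They were chosen by name, as 9 of the 31053 genes in the count matrices, and all 9 were found. The study profiled single cells of spontaneous mammary tumors on the 10x Genomics platform. Each of its mice carried the MMTV-PyMT transgene, in which the mammary tumor virus promoter drives the polyoma middle T oncogene, so that the controls were also tumor bearing. PyMT-PAR2WT mice had the wild-type receptor (labelled wild-type), and PyMT-PAR2G37I mice had a knock-in form of PAR2 that coagulation factor Xa cannot activate (labelled PAR2 G37I mutant), and neither was treated further. Cells selected on beads for CD11c came from 3 PyMT-PAR2WT and 3 PyMT-PAR2G37I samples, and T cells selected for CD4 or CD8 from 3 and 3 others. The paper gives late-stage tumors as the source of the CD11c selection and mid-size tumors for the CD4/CD8 selection. Cells were frozen and thawed before loading, and ages are not given in the labels.

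Lineage-determining transcription factors set which genes a blood cell can use, and most act in combination and in a dose-dependent way. *Spi1* encodes PU.1, which opens myeloid enhancers and pairs with IRF4 or IRF8 at composite sites. *Irf8* and *Batf3* are required for cDC1, which cross-present tumor antigen, while *Irf4* and *Klf4* serve cDC2. *Zbtb46* marks committed conventional dendritic cells (DCs). *Klf4* and *Cebpb* act in monocytes, c-Maf (*Maf*) supports resident and alternatively activated macrophages, and C/EBPε (*Cebpe*) drives the late granule program of neutrophils and eosinophils.

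Cells were assigned to gates on raw unique molecular identifiers (UMIs) of surface marker genes, none of which is one of the 9 genes. The CD11c-selected matrix held 11639 cells after a filter of at least 200 genes, and 123642015 UMIs, with a median of 7943 per cell. One gate held 6126 of these cells, 5511 cells fell in no gate, and 2 fell in several. The gates gave 3668 macrophages in 5 groups, which were 307 Lyve1/Cd209f, 906 *Mrc1*, 1340 *Mrc1* low, 799 Tmem119/Cx3cr1, and 316 Gpnmb/Trem2 cells. They also gave 88 Ly6c2 monocytes, 983 Fn1/Ccr2 myeloid cells, 320 cDC1, 84 cDC2, 506 migratory DCs, and 28 neutrophils. Median UMIs per cell ran from 8382 in monocytes to 23548 in the Gpnmb/Trem2 macrophages, with 3107 in neutrophils.

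Markers that had not been used for gating were read in each gate. In the cDC1 gate 8 of 8 cDC1 genes were found and summed to 29000 UMIs per 1000000, against 4133 in the cDC2 gate. *Cst3* alone gave 24871 of the sum in cDC1, and the list summed to 11642 in the migratory gate. All 8 were at least 2-fold higher in cDC1 than in cDC2, beside 9.19% of 7311 genes. The 8 cDC2 genes summed to 3325 in the cDC2 gate and 195 in the cDC1 gate, the 8 migratory genes to 4791 in the migratory gate and 75.5 in the cDC2 gate, and the 8 macrophage genes to 41190.4 in macrophages and 765 in cDC2. Not every list was highest in its own gate. The 8 monocyte genes summed to 2035 in the monocyte gate, above the 535 of pooled macrophages but below the 2660.0 of Lyve1/Cd209f macrophages and the 2549 of fibroblasts, and the cDC2 genes summed to 3574 in the 28 neutrophils. In the Fn1/Ccr2 gate the macrophage genes summed to 10767.5 and the monocyte genes to 481, with 8 of 8 found in both lists. The 6 T cell genes summed to 62.6 there, of which *Cd2* alone, a gene some DCs also use, gave 62.2, and *Trac* was at 0.

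The barcodes carry no sample name, so each matrix is 1 sample with no replicate and no comparison of genotypes was made. Read in file order the barcodes run through the alphabet repeatedly, giving 6 barcode runs that were linked to no sample or genotype, and 76 barcodes of the CD11c-selected cells occur more than once. The spread over runs with at least 10 cells in a gate is given below as a description. Run 4 stood apart, with 360 cells and a median of 31161.5 UMIs against 6290 to 9285.5 in the other 5. Levels are UMIs of a gene per 1000000 UMIs of a gate, with an exact 95% Poisson interval that covers counting error only. Folds between gates carry an exact conditional binomial interval, and no p-values are given.

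On GENCODE M21 (GRCm38), *Irf8* lies at chr8:120736358-120756694 on the plus strand and *Maf* at chr8:115682942-115707794 on the minus strand. Other members share chromosome 2, with *Zbtb46* at chr2:181387762-181459426 (minus), *Cebpb* at chr2:167688915-167690418 (plus), and *Spi1* at chr2:91082390-91115756 (plus). *Batf3* is at chr1:191097847-191108945 (plus), *Irf4* at chr13:30749226-30766976 (plus), *Cebpe* at chr14:54710360-54712174 (minus), and *Klf4* at chr4:55527143-55532466 (minus). *Cebpb* overlaps *Tmem189* on the opposite strand, which has 27356 UMIs against 134383 of *Cebpb*, and *Maf* overlaps the antisense gene *Gm15655*, with 33 UMIs against 10734. Whether counting used the strand is not given in the sources used here, so reads of such partners may not be told apart.

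*Irf8* was highest in cDC1, where *Cebpb* was lowest, and the 250 bases before their starts are shown so that both control regions can be read side by side (RefSeq promoter table, GRCm38.p6; *Irf8* at chr8:120736108-120736357 and *Cebpb* at chr2:167688665-167688914, both on the plus strand, 5′ to 3′). The table held 6 of the 9 members. Capitals mark matches on either strand to the KLF letters CCNCNCCC, some of which overlap.
Irf8: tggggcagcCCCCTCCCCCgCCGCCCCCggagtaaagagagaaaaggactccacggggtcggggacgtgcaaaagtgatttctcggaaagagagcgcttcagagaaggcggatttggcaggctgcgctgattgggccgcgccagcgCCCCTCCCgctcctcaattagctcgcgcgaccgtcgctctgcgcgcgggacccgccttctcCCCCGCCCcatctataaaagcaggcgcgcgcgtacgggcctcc
Cebpb: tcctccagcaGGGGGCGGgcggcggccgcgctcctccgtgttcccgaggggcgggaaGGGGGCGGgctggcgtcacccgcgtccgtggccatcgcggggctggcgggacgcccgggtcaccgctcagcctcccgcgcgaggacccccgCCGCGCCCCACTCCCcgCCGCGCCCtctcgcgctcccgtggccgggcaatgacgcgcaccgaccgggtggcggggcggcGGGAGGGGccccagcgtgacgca
The *Irf8* window holds 5 such matches and the *Cebpb* window 6, and 45.9% of 32851 windows of the same length hold at least 1. The ETS core GGAA, the PU.1 letters, has 1 match in the *Irf8* window and 2 in the *Cebpb* window, and is present in 93.4% of windows. Neither window holds the AP-1 letters TGANTCA (6.75% of windows), an IRF repeat, read as 2 runs of GAAA that are 2 bases apart (2.98%), or the C/EBP letters TTNCGCAA (0.670%). A second *Irf8* window of the promoter table, at chr8:120738389-120738638, is not shown. It holds no KLF match and 2 matches to the ETS core. These matches describe the letters only.

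Each member had its own order over the 10 myeloid gates with at least 50 cells. *Zbtb46* was highest in the migratory DC gate, *Irf8* in cDC1, *Maf*, *Cebpb*, and *Klf4* in the Lyve1/Cd209f macrophages, *Spi1* in Ly6c2 monocytes, and *Batf3*, *Irf4*, and *Cebpe* in the Fn1/Ccr2 cells. The plot of levels by gate shows all 90 values.

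**Figure D1:**
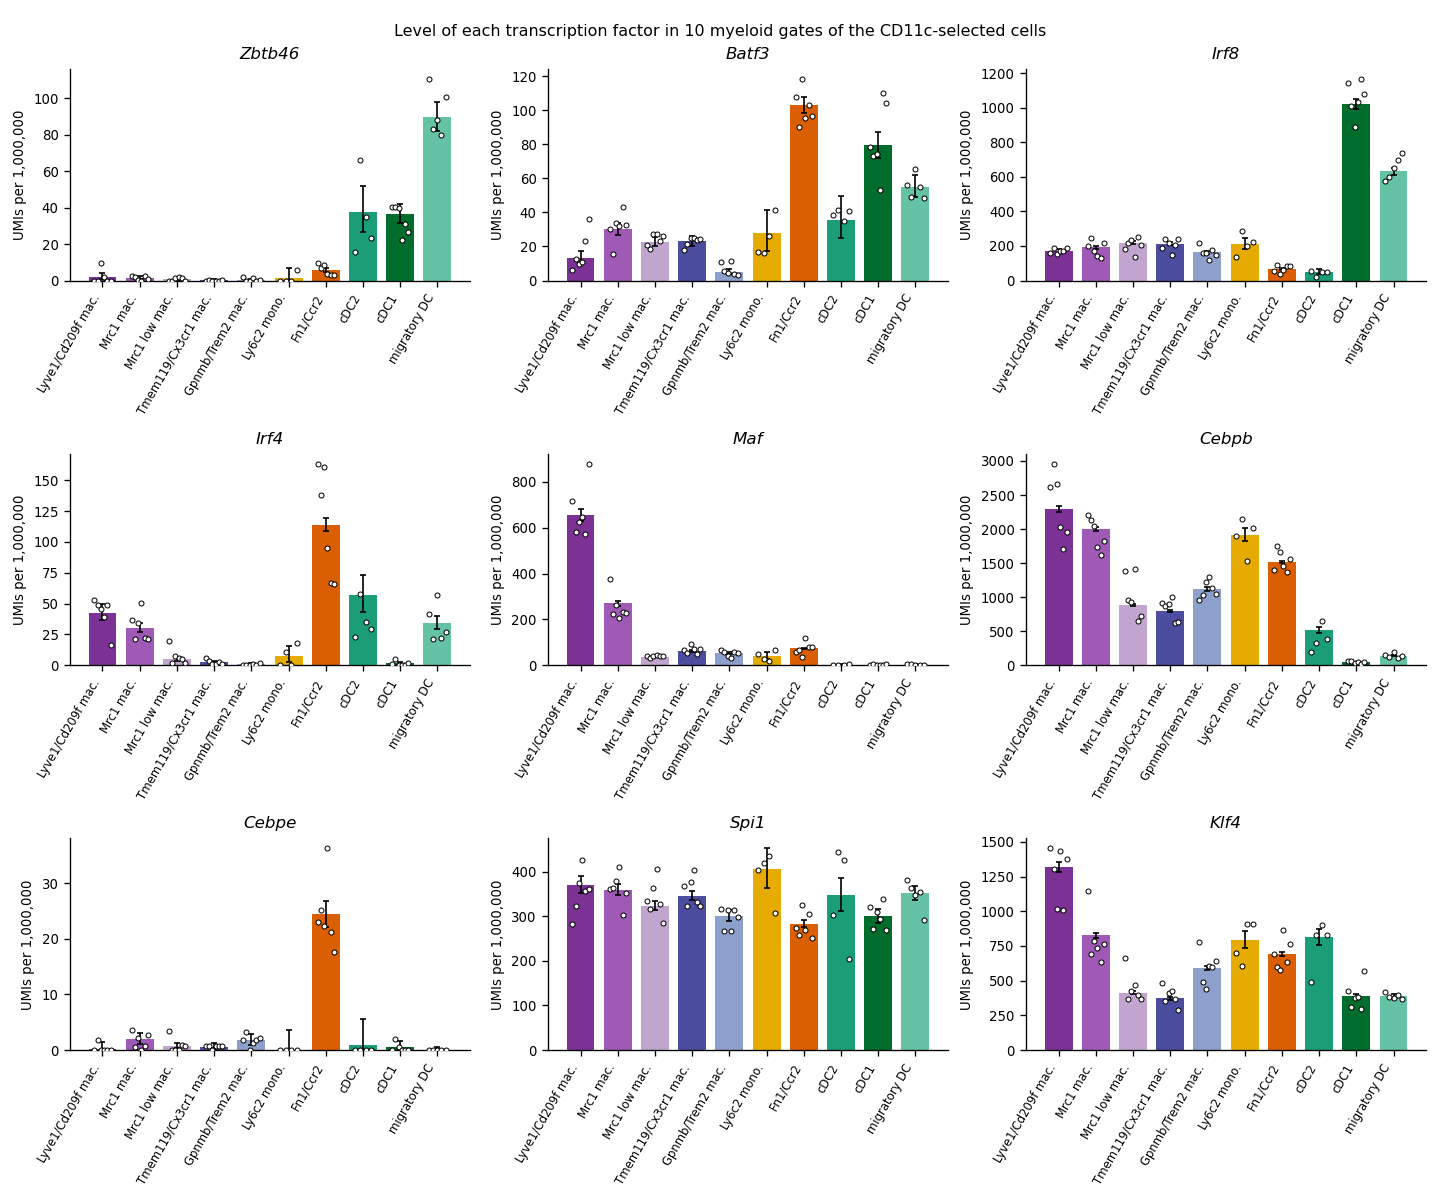
Levels of the 9 genes (UMIs per 1,000,000 UMIs of the gate, linear axes from 0) in 10 myeloid gates of the CD11c-selected cells; bars give the level over all cells of the gate, black lines the exact 95% Poisson interval, and white points the barcode runs with at least 10 cells. *Batf3*, *Irf4*, and *Cebpe* peak in the Fn1/Ccr2 gate, and *Spi1* lies between 283 and 406 in all 10 gates.

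*Zbtb46*, the zinc finger factor of committed conventional DCs, was a DC gene in these cells. Its level was 89.8 (95% interval, 82.0 to 98.2) in the migratory gate, 37.7 (26.7 to 51.8) in cDC2, and 36.3 (31.3 to 41.7) in cDC1. Over runs it ranged from 79.8 to 111 around a median of 88.1 in the migratory gate, from 15.5 to 66.2 in 4 runs of cDC2, and from 22.1 to 40.5 in cDC1. The migratory runs were all above those of the other DC gates. The migratory level was 2.48-fold that of cDC1 (2.09 to 2.94; higher in 5 of 5 runs), whereas cDC1 and cDC2 did not differ beyond counting error (0.961-fold, 0.676 to 1.40).

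In the other myeloid gates *Zbtb46* was lower. Pooled macrophages had 0.745 (0.519 to 1.04), from 35 UMIs, and cDC2 were 50.7-fold higher (31.2 to 82.6). Fn1/Ccr2 cells had 5.79 (4.73 to 7.02), and epithelial cells of the same matrix 4.53 (2.90 to 6.74), a ratio of 1.28 whose interval spans 1 (0.813 to 2.08). The Fn1/Ccr2 level was 7.78-fold that of pooled macrophages (5.25 to 11.8; 6 of 6 runs) and 2.86-fold that of Lyve1/Cd209f macrophages, the next gate in the order (1.40 to 6.80; 5 of 6 runs). The 24 endothelial cells had 29.2, from 13 UMIs. Whether the Fn1/Ccr2 UMIs come from free RNA was not tested.

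*Batf3*, the AP-1 family partner of IRF8 in cDC1, was highest outside the cDC1 gate. Fn1/Ccr2 cells had 103 (98.5 to 108), with runs between 90.1 and 118 and a median of 99.8, and they held 36.8% of all *Batf3* UMIs. The cDC1 gate had 79.4 (72.1 to 87.4), with runs from 53.0 through 76.4 to 110, so the runs of the 2 gates overlap. The level in Fn1/Ccr2 cells was 1.30-fold that in cDC1 (1.17 to 1.45) and higher in 4 of 6 runs. Counting error alone would separate these gates, and the spread over runs does not.

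Migratory DCs followed with 55.0 (48.9 to 61.7) and cDC2 with 35.7 (25.0 to 49.5). The cDC1 level was 2.22-fold that of cDC2 (1.58 to 3.22), higher in 4 of 4 runs. Macrophage gates ran from 30.0 in Mrc1 cells to 13.4 in Lyve1/Cd209f cells and 4.98 in Gpnmb/Trem2 cells, and monocytes had 27.8 (17.6 to 41.7). Epithelial cells had 3.02, and all these macrophage levels except that of the Gpnmb/Trem2 gate (interval, 3.59 to 6.73, against 1.73 to 4.91) were above it beyond counting error. From cDC2 through Mrc1 macrophages, monocytes, and Tmem119/Cx3cr1 to Mrc1 low macrophages, no neighbor in the order differed beyond counting error.

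*Irf8*, which cDC1 and pDC need and which restrains the granulocyte fate, was highest in cDC1 among the 10 myeloid gates. The cDC1 gate had 1022 (995 to 1050), with runs from 888 to 1168, and the cDC2 gate 51.6 (38.6 to 67.7), with 4 runs from 20.7 to 54.1. No run of cDC1 came near the cDC2 range, and the fold was 19.8 (15.1 to 26.5). The migratory gate had 631 (610 to 653), with runs from 578 to 738.

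Macrophages held an intermediate and even level of *Irf8*. The 5 macrophage gates lay between 163 and 219, monocytes at 213 (182 to 246), and the pooled macrophages at 198 (194 to 202). Mrc1 low and Tmem119/Cx3cr1 macrophages, monocytes, and Mrc1 macrophages followed each other in the order with no step beyond counting error. Fn1/Ccr2 cells had 66.1 (62.4 to 70.0), with runs from 36.9 to 90.7, which was one of the low levels of the myeloid gates beside cDC2. Macrophages were 3.00-fold above them (2.82 to 3.19) and higher in 6 of 6 runs. In the 90 cells of a wider neutrophil gate, no *Irf8* UMI was found among 239849 UMIs, which allows a level of up to 12.5. The 19 pDC of the matrix had 1490 (1308 to 1690).

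*Irf4*, the relative of *Irf8* that serves cDC2 and alternatively activated macrophages, was highest in Fn1/Ccr2 cells. Their level was 114 (109 to 119), and they held 50.6% of all *Irf4* UMIs. Its runs were uneven, from 66.2 through 116 to 163. The lowest was still above the highest run of the other 9 myeloid gates among runs with at least 10 cells. The cDC2 gate had 56.6 (42.9 to 73.3), with 4 runs from 23.2 to 57.9 whose values lie mostly under the pooled level because 2 runs with fewer than 10 cells are not shown.

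Among macrophages *Irf4* was highest in the Lyve1/Cd209f and Mrc1 gates. Lyve1/Cd209f cells had 42.7 (36.5 to 49.7) and Mrc1 cells 30.2 (26.7 to 34.1), against 5.04 in *Mrc1* low, 2.34 in Tmem119/Cx3cr1, and 0.830 in Gpnmb/Trem2 cells. The *Irf4* fold of Lyve1/Cd209f over Tmem119/Cx3cr1 cells was 18.3 (12.3 to 27.9), higher in 6 of 6 runs. The 6 Fn1/Ccr2 cell genes outside the gate summed to 1915 in Lyve1/Cd209f and 927 in Mrc1 macrophages. They summed to 87.2 in Mrc1 low, 24.7 in Tmem119/Cx3cr1, 143 in Gpnmb/Trem2, and 7947.5 in Fn1/Ccr2 cells. Macrophage gates left out only cells with at least 5 UMIs of *Fn1* and 2 of *Ccr2* jointly. The part of such cells in these *Irf4* levels was not tested. In cDC1 only 8 *Irf4* UMIs were counted, a level of 1.50 (0.645 to 2.95) that overlaps the 0.755 of epithelial cells, and cDC2 were 37.9-fold higher (18.0 to 91.9; 4 of 4 runs).

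The number of *Irf8* UMIs per *Irf4* UMI orders the gates, and since both genes are read in the same cells this ratio does not depend on the depth of a gate. It compares gates, not the amounts of both transcripts. It was 684 in cDC1, 197 in Gpnmb/Trem2, 91.1 in Tmem119/Cx3cr1, and 43.5 in Mrc1 low macrophages. The first of these values rests on 8 *Irf4* UMIs and the second on 7. Monocytes had 29.3, migratory DCs 18.2, Mrc1 macrophages 6.35, and Lyve1/Cd209f macrophages 4.0. The lowest of the 10 gates were cDC2 (0.912) and Fn1/Ccr2 cells (0.580). Of the summed *Irf8* and *Irf4* UMIs, *Irf8* made up 47.7% (Clopper-Pearson, 38.1% to 57.5%) in cDC2 and 36.7% (35.0% to 38.4%) in Fn1/Ccr2 cells. At the other end the interval was 99.71% to 99.94% in cDC1 and 98.96% to 99.80% in Gpnmb/Trem2 macrophages. In Tmem119/Cx3cr1 macrophages it was 98.45% to 99.27%. Neighboring intervals overlap at both ends, so these steps of the order lie within counting error.

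**Figure D2:**
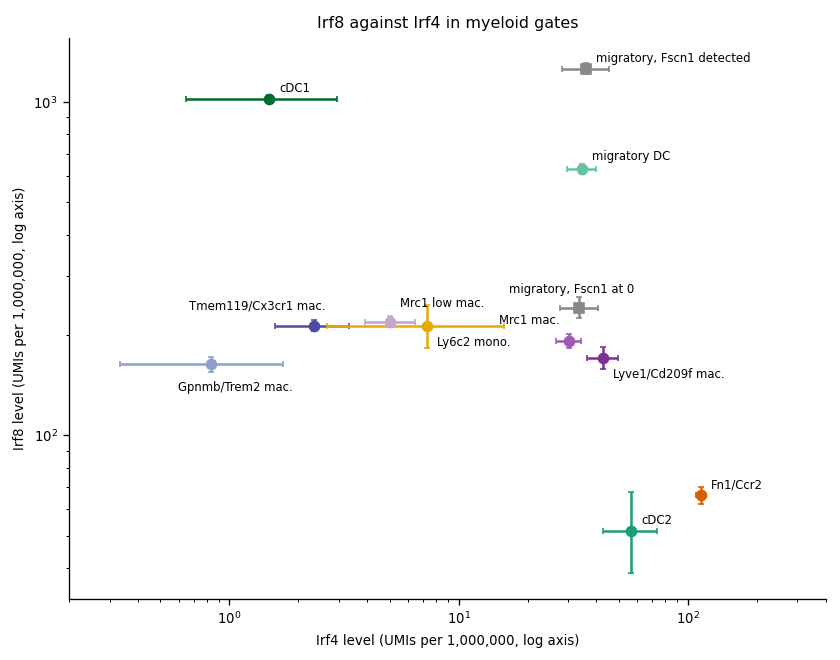
*Irf8* level against *Irf4* level (UMIs per 1,000,000, both axes logarithmic) in 10 myeloid gates (circles) and in the migratory gate split by *Fscn1* (squares), with exact 95% Poisson intervals as lines. The cDC1 gate lies at the upper left with 1022 and 1.50, and the cDC2 and Fn1/Ccr2 gates at the lower right.

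In cDC1 against cDC2, 7 members reached a level of 10 in at least 1 of the gates. Of these, *Batf3* and *Irf8* were at least 2-fold higher in cDC1 and *Irf4*, *Cebpb*, and *Klf4* at least 2-fold lower, so 5 of 7 differed, beside 22.2% of 7311 genes (9.19% higher and 13% lower). *Zbtb46* and *Spi1* stayed within 2-fold, and *Maf* and *Cebpe* were too low to be counted.

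*Maf*, a large *Maf* factor of resident macrophages, was graded within the macrophages. Lyve1/Cd209f cells had 656 (631 to 682), with runs from 573 through 635 to 879, and Mrc1 cells 270.2 (260 to 281), with runs from 205 to 378. These ranges do not overlap each other or those of the other gates. Tmem119/Cx3cr1, Gpnmb/Trem2, and Mrc1 low cells had 63.4, 53.8, and 38.3. The Lyve1/Cd209f level was 17.1-fold that of Mrc1 low cells (15.5 to 18.9) and 10.3-fold that of Tmem119/Cx3cr1 cells (9.55 to 11.2), higher in 6 of 6 runs in both.

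Monocytes had a *Maf* level of 39.9 (27.4 to 56.0) and Fn1/Ccr2 cells one of 73.3 (69.4 to 77.4). The DC gates had 1.99 to 2.62, from 2 to 14 UMIs, and epithelial cells 3.59 (2.16 to 5.60). *Maf* in these DC gates thus did not exceed the epithelial level, and macrophages were 72.4-fold above cDC2 with a wide interval (20.0 to 598) that rests on 2 UMIs. A second cDC2 gate did not require *Flt3* but allowed at most 1 UMI each of *Adgre1* and *Csf1r*, which the main gate does not limit. There *Maf* was 7.03, from 8 UMIs, and the difference fell from 6.18 to 4.35 on the log2 scale.

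*Cebpb*, a C/EBP factor of monocytes, neutrophils, and inflammatory macrophages, was, among the 10 gates, highest in Lyve1/Cd209f and Mrc1 macrophages and in monocytes. It had 2296 (2249 to 2343) in Lyve1/Cd209f, 1994 (1965 to 2023) in Mrc1, 1119.6 in Gpnmb/Trem2, 891 in Mrc1 low, and 792 in Tmem119/Cx3cr1 cells. Monocytes reached 1916 (1823 to 2012), which did not differ from Mrc1 macrophages beyond counting error, and Fn1/Ccr2 cells 1514 (1496 to 1532). Runs of Lyve1/Cd209f cells spread from 1713 to 2960.0 and overlap those of Mrc1 cells and monocytes.

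The DC gates had the lowest *Cebpb* levels of the 10 gates, with cDC2 well above the other DC gates. The cDC1 gate had 48.6 (42.9 to 54.9), with runs from 16.8 to 62.1, and the migratory gate 141 (132 to 152). The cDC2 gate had 522 (479 to 569), 10.7-fold that of cDC1 (9.25 to 12.5; higher in 4 of 4 runs). Run 4 weighed on this value, and the monocyte-to-cDC2 difference was 2.31 on the log2 scale without that run against 1.88 with it. Epithelial cells had 1190.0, so no background can be read from them for *Cebpb*.

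*Klf4*, a zinc finger factor of Ly6c-high monocytes and of IRF4-dependent cDC2, spanned a narrower range. Its level was 1319.6 (1284 to 1356) in Lyve1/Cd209f macrophages, with runs from 1010.0 to 1452, and 374 (363 to 385) in Tmem119/Cx3cr1 macrophages, with runs from 289.8 to 484. That is a 3.53-fold difference (3.39 to 3.67) with no overlap of runs. Mrc1 macrophages, cDC2, and monocytes, with 826, 813, and 792, followed each other with no step beyond counting error. The cDC2 level was 2.08-fold that of cDC1 (1.92 to 2.26; 4 of 4 runs), and cDC1, migratory DCs, and Tmem119/Cx3cr1 macrophages, with 390.4, 389, and 374, were alike within counting error.

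Transcripts that respond to handling also differed between gates. A list of 8 immediate early and heat shock genes, chosen after the levels were seen, summed to 5262 in Lyve1/Cd209f and 4676 in Mrc1 macrophages, 3572 in Mrc1 low and 3346 in Tmem119/Cx3cr1 macrophages, 3144 in monocytes, 2808 in Fn1/Ccr2 cells, 3014 in cDC2, 2268 in cDC1, and 1876 in migratory DCs. All 8 were detected in each of these gates. Lyve1/Cd209f and then Mrc1 macrophages were highest in this sum, in *Klf4*, and in *Cebpb* among the 10 myeloid gates. In Mrc1 low and Tmem119/Cx3cr1 macrophages the sum was higher, and *Klf4* lower, than in monocytes, cDC2, and Fn1/Ccr2 cells. Gpnmb/Trem2 macrophages had the lowest sum, 1390.1, with 591 of *Klf4* and 1119.6 of *Cebpb*. The part of these handling transcripts in the *Klf4* and *Cebpb* values was not tested.

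*Cebpe*, the factor of late granule genes, was nearly confined to 1 gate among those read. Fn1/Ccr2 cells had 24.4 (22.2 to 26.8), from 434 UMIs that make up 67.1% of all *Cebpe* UMIs of the matrix. The runs had 17.6, a median of 22.7, and 36.3, and each was above every run of the macrophage, monocyte, and DC gates, whose highest was 3.70. Macrophages had 1.06 (0.789 to 1.40), 22.9-fold less (17.1 to 31.4; 6 of 6 runs). Another 24.4% of the UMIs lay in cells of no gate.

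No *Cebpe* UMI was found in 5342982 UMIs of migratory DCs, which allows up to 0.561, or in 827855 of monocytes, which allows up to 3.62. Against 3 UMIs over the gate, Fn1/Ccr2 cells were at least 43.4-fold higher than migratory DCs and at least 6.73-fold higher than monocytes. Epithelial cells had 1 *Cebpe* UMI. In the wider neutrophil gate 4 UMIs gave 16.7 (4.54 to 42.7), an interval that includes the Fn1/Ccr2 level.

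Granule genes known to depend on C/EBPε did not accompany it as a group. Of 10 such genes, 5 reached a level of 10 in Fn1/Ccr2 cells or macrophages. Of these, 1 was at least 2-fold higher and none at least 2-fold lower, beside 4.99% and 7.47% of 7562 genes. The median difference was 0.12 on the log2 scale, beside −0.03 over all genes counted. The 1 higher granule gene was *Lyz1*, a lysozyme, with 613 against 35.6. *Camp* and *Ngp*, the cathelicidin and neutrophilic granule protein genes, had 0 UMIs in Fn1/Ccr2 cells, and *Ltf* (lactotransferrin) had 2.59.

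*Spi1*, which all these cells need, was the most even member in the level. It lay between 283 in Fn1/Ccr2 cells and 406 in monocytes over the 10 gates, and macrophages and cDC2, at 336 and 348, gave a difference of −0.05 on the log2 scale with an interval from −0.20 to 0.11. This depended on how the cells were gated, since the interval lay below 0 with stricter gates (−0.28, −0.51 to −0.05). It lay above 0 with thinned gates (0.26, 0.02 to 0.52) and with the cDC2 gate that drops *Flt3* and limits *Adgre1* and *Csf1r* (0.35, 0.18 to 0.52). From monocytes down to Tmem119/Cx3cr1 macrophages no neighbors differed beyond counting error. In cDC2 the runs alone spread over more than this range, from 205 to 443, and in Fn1/Ccr2 cells they lay between 251 and 325. Cells that should lack PU.1 had far less, with 1.70 in epithelial cells, 0 of 1344752 UMIs in fibroblasts, and 0.699 in the CD8 T cells of the other matrix.

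Shares of cells with a UMI were compared after each cell had been thinned to 3000 UMIs, which left out 178 macrophages, 18 Fn1/Ccr2 cells, 6 cDC1, 2 cDC2, and 75 epithelial cells. *Irf8* was found in 88.2% of cDC1 (84.1% to 91.6%; 98.4% before thinning), 41.9% of macrophages, 16.6% of Fn1/Ccr2 cells, and 14.6% of cDC2 (7.80% to 24.2%; 25.0% before thinning), against 1.05% of epithelial cells. Median depths before thinning were 16135.5 UMIs in cDC1, 15615 in Fn1/Ccr2 cells, 9964 in cDC2, and 12588 in epithelial cells. *Maf* was found in 84.5% of Lyve1/Cd209f macrophages and 9.40% of Mrc1 low macrophages. In cDC1 it was found in 0.955%, below the 2.11% of epithelial cells, which is read as background.

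*Batf3* was found in 24.2% of Fn1/Ccr2 cells (21.6% to 27.1%; 59.4% before thinning) and 19.7% of cDC1 (15.5% to 24.6%; 64.1% before thinning), so its order between these gates was within counting error and turned over with depth. *Irf4* was found in 21.3% of Fn1/Ccr2 cells (18.8% to 24.1%), 15.9% of cDC2 (8.72% to 25.6%), and 0 of 314 cDC1, which allows up to 0.955%. *Cebpe* was found in 5.80% of Fn1/Ccr2 cells (4.41% to 7.47%; 23.6% before thinning) and 0.344% of macrophages. At this depth a single UMI per cell decides most of these calls, and the shares do not count the cells that express a gene.

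**Figure D3:**
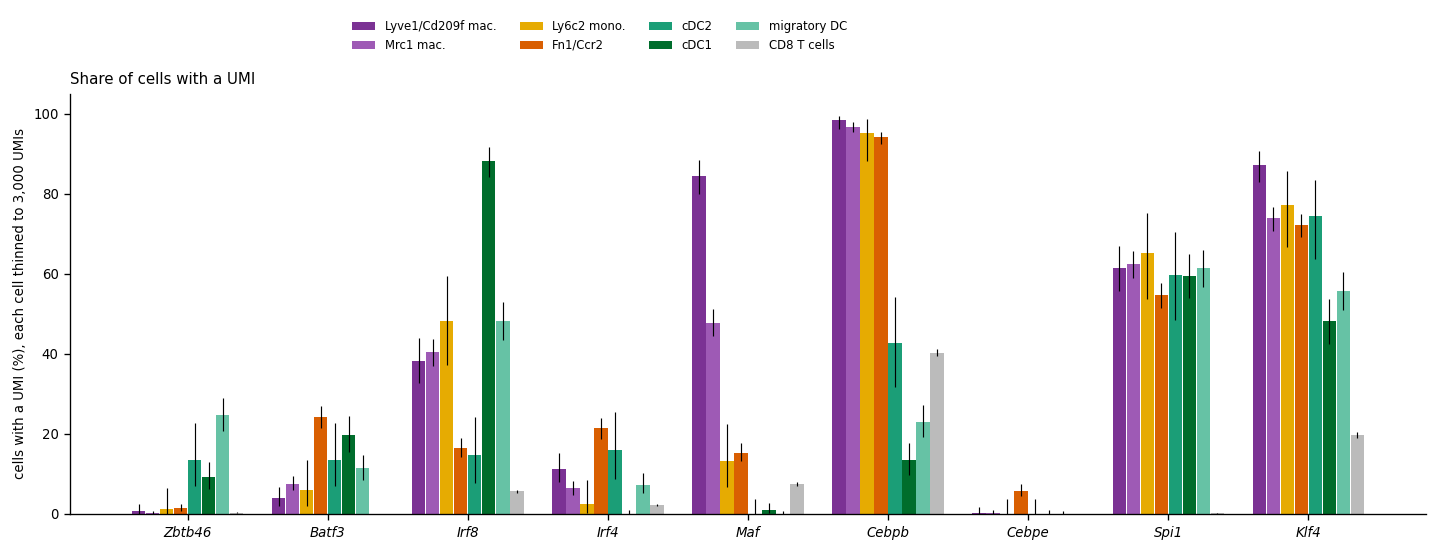
Share of cells with at least 1 UMI of each gene (%), after thinning each cell to 3,000 UMIs, in 7 gates of the CD11c-selected cells and in CD8 T cells of the CD4/CD8-selected cells; lines are exact 95% Clopper-Pearson intervals. *Spi1* is found in 54.6% to 65.1% of the cells of all 7 myeloid gates shown, whereas *Cebpe* reaches 5.80% only in the Fn1/Ccr2 gate.

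The Fn1/Ccr2 cells held *Batf3*, *Irf4*, and *Cebpe* at their highest levels of the 10 gates. Against pooled macrophages, 8 members, all but *Zbtb46*, reached a level of 10 in 1 of the gates, and *Batf3* (5.11-fold), *Irf4* (9.93-fold), and *Cebpe* were at least 2-fold higher and *Irf8* at least 2-fold lower, which is 4 of 8 beside 12.5% of 7562 genes (4.99% higher and 7.47% lower). *Maf* was 1.96-fold lower (1.85 to 2.08), and *Cebpb* and *Klf4* were 1.23-fold and 1.18-fold higher. Against cDC2, these cells had 2.89-fold the *Batf3* (2.08 to 4.13) and 2.02-fold the *Irf4* (1.55 to 2.67), each higher in 4 of 4 runs, but 6.52-fold less *Zbtb46*. Against Ly6c2 monocytes they had 15.7-fold the *Irf4* (7.22 to 42.9) and 3.71-fold the *Batf3* (2.47 to 5.87), and 3.22-fold less *Irf8*.

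**Figure D4:**
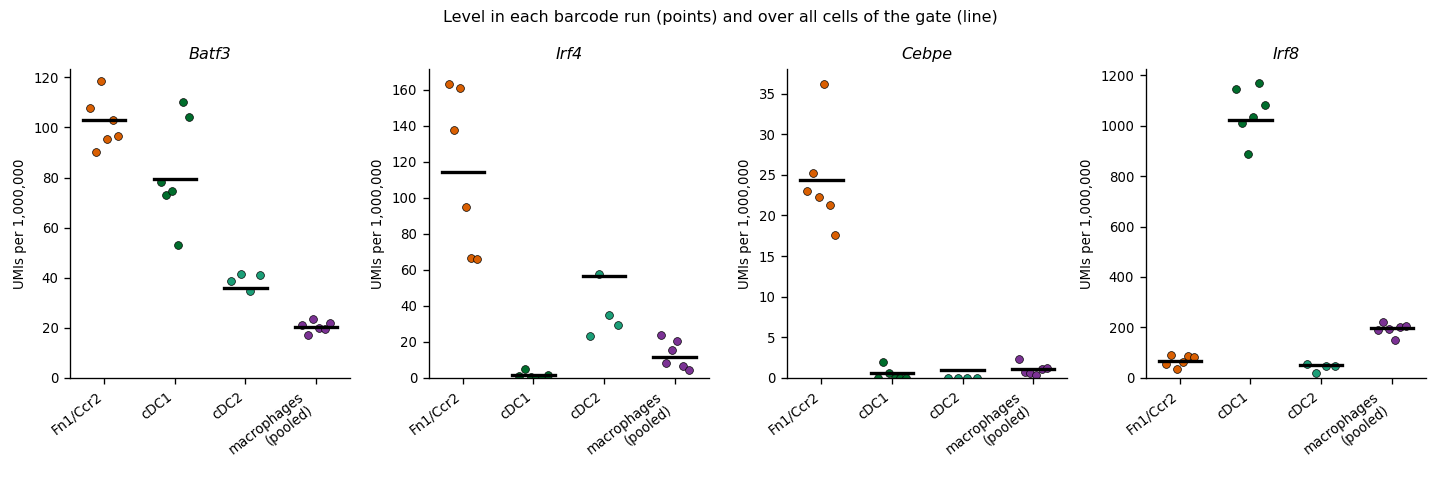
Levels of *Batf3*, *Irf4*, *Cebpe*, and *Irf8* (UMIs per 1,000,000) in Fn1/Ccr2 cells, cDC1, cDC2, and pooled macrophages; points are barcode runs with at least 10 cells of the gate and lines the level over all its cells, so that a line can lie outside the points where small runs are not shown. Every *Cebpe* run of the Fn1/Ccr2 gate, from 17.6 up, lies above those of the other gates, while the *Batf3* runs overlap with cDC1.

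Cells of the Fn1/Ccr2 gate were also divided by whether a *Cebpe* UMI was present, a division made after the levels had been seen. The 232 cells with *Cebpe* had a median of 24343.5 UMIs and the other 751 cells one of 13585, so that depth differed between them. Levels per 1000000 UMIs were 1.75-fold higher with *Cebpe* for *Batf3* (143 against 81.9; 1.60 to 1.92) and 1.59-fold higher for *Irf4* (151 against 94.7; 1.46 to 1.74), in 6 of 6 runs each. *Irf8* was 3.26-fold lower (26.7 against 86.9) and *Maf* 2.80-fold lower (33.7 against 94.2), in 6 of 6 runs each. *Spi1* (259 against 296) and *Klf4* (593 against 746) differed less.

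Other genes of these cells divided with them. *C1qa*, a complement gene of macrophages, had 515 in cells with *Cebpe* and 2056 in the others, and *Retnla*, a gene of alternative activation, 8726 and 5085. The 8 macrophage genes summed to 4929 and 13849, all 8 detected in both. Their part in the division of *Irf8* and *Maf* was not tested. After thinning, *Irf8* and *Irf4* were found together in 14 of 965 Fn1/Ccr2 cells, or 1.45%, while the product of their separate shares is 3.54%. *Batf3* and *Irf4* were found together in 5.60%, beside a product of 5.18%.

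The migratory gate held 198 cells with a UMI of *Fscn1*, the fascin gene of mature DCs, and 308 without, at equal median depth (9782 and 9786 UMIs). Cells with *Fscn1* had an *Irf8* level of 1259 (1211 to 1309), which is 5.21-fold that of the others (242; 4.81 to 5.65), and a *Batf3* level of 102, which is 3.90-fold (26.1; 3.02 to 5.07). *Zbtb46* was 123 against 69.2 and *Cebpb* 35.2 against 207. These differences had the same direction in 5 of 5 runs. *Irf4* was 36.2 and 33.7, with a ratio of 1.07 whose interval spans 1 (0.789 to 1.45).

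The cells with *Fscn1* resembled cDC1 in *Irf8*, with 1.23-fold its level (1.18 to 1.29), and in *Batf3*, with 1.28-fold (1.08 to 1.51; higher in 3 of 5 runs), but had 24.2-fold the *Irf4* (11.7 to 58.1) and 3.40-fold the *Zbtb46*. Those without *Fscn1* had 4.68-fold the *Irf8* of cDC2 (3.54 to 6.33) and 1.83-fold the *Zbtb46*. The cDC1 genes outside the gate summed to 15700 with *Fscn1* and 9123 without, beside 29000 in cDC1 and 4133 in cDC2. The cDC2 genes outside the gate summed to 645 with *Fscn1* and 2608 without, beside 3325 in cDC2. The migratory genes, *Fscn1* included, summed to 10621 and 1172. *Relb*, an NF-κB subunit of mature DCs, had 576 and 168. The part of this mixture in the members' values over the whole gate was not tested. Over the whole migratory gate against cDC2, 4 of 7 members (all but *Maf* and *Cebpe*) differed by at least 2-fold, *Zbtb46* and *Irf8* upward and *Cebpb* and *Klf4* downward, beside 16.6% of 7144 genes (8.61% higher and 8.01% lower).

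**Figure D5:**
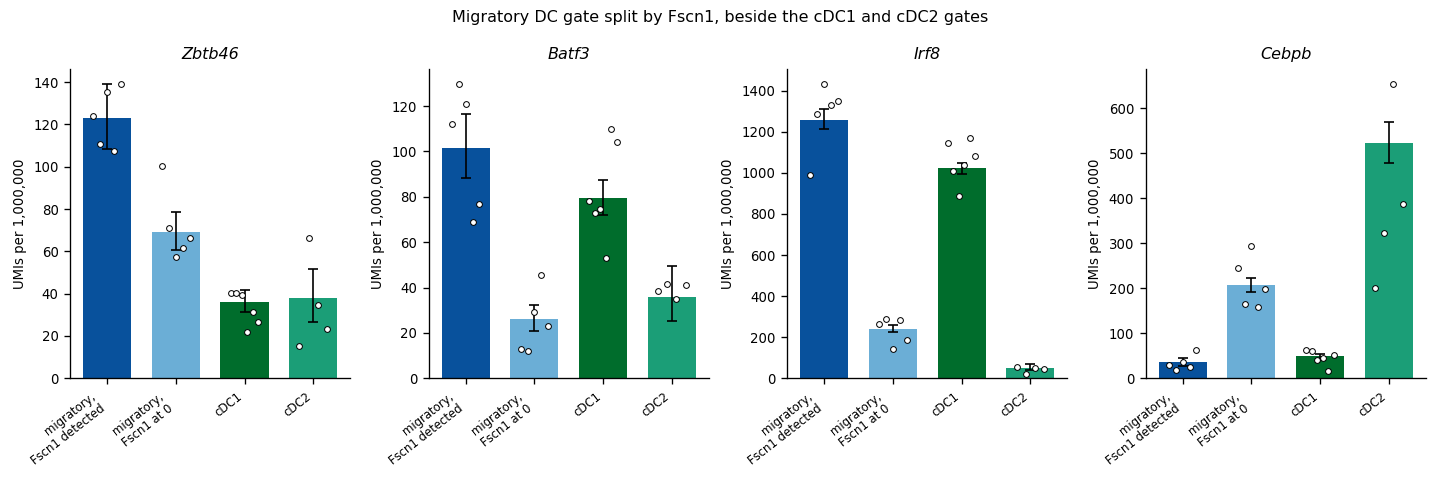
Levels of *Zbtb46*, *Batf3*, *Irf8*, and *Cebpb* (UMIs per 1,000,000) in migratory DCs with and without a *Fscn1* UMI, and in cDC1 and cDC2; bars are levels over all cells, lines exact 95% Poisson intervals, and points barcode runs with at least 10 cells. *Irf8* is 1259 with *Fscn1* and 242 without, next to 1022 in cDC1 and 51.6 in cDC2.

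Monocytes were also set against pooled macrophages, a pool whose gates differ among themselves in *Cebpb*, *Klf4*, *Irf4*, and *Maf*. Of the 7 members that reached a level of 10 in 1 of the gates, *Zbtb46* and *Cebpe* being too low, *Maf* alone was at least 2-fold apart, 3.61-fold lower in monocytes (interval of the monocyte over macrophage ratio, 0.191 to 0.390), beside 9.60% of 7574 genes (4.20% higher and 5.40% lower), a share near the background. *Cebpb* was 1.56-fold (1.48 to 1.64), *Klf4* 1.35-fold (1.24 to 1.45), and *Spi1* 1.21-fold the macrophage level (1.08 to 1.34), while *Irf8* at 1.07-fold (0.918 to 1.25) did not differ beyond counting error. With gates read after thinning, the *Klf4* difference fell from 0.43 to 0.13 on the log2 scale, with an interval that spans 0 (−0.08 to 0.33). In cDC2 against macrophages, 5 of 8 members (all but *Cebpe*) differed by at least 2-fold, *Zbtb46* and *Irf4* upward and *Irf8*, *Maf*, and *Cebpb* downward, beside 23.2% of 7639 genes (8.86% higher and 14.4% lower).

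Neutrophils were few. The gate of 28 cells held 87585 UMIs, with 7 of 7 neutrophil genes outside the gate summing to 42610.0, and its *Cebpb* level was 6325 (5809 to 6875). A wider gate of 90 cells, added after the first was found small, had 6425 (6108 to 6754), with 3 runs from 4898 to 7101, which was 3.35-fold the level in monocytes (3.13 to 3.60). *Spi1* was 600.4 (506 to 707) there, and *Batf3*, *Irf8*, *Maf*, and *Zbtb46* had 0 UMIs each. With so few UMIs, 48.4% of 8539 genes differed by at least 2-fold between the 28 neutrophils and monocytes (37.4% higher and 11.0% lower), beside 6 of 7 members, so nothing is read from that count.

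Cycling cells, with at least 2 UMIs of *Top2a* and *Mki67* together, were compared with cells without a UMI of either gene. In cDC1 the 88 cycling cells had a *Batf3* level of 108 (93.8 to 124) and 193 others 63.0 (54.2 to 72.9), while *Irf8* was 1042 and 1040.4. Cycling macrophages had 380 of *Klf4* against 643 and 912 of *Cebpb* against 1325. Cycling Fn1/Ccr2 cells had 32.7 of *Cebpe* (28.0 to 37.9) against 19.3 (16.7 to 22.2), and 49.3 of *Irf8* against 75.2. In the migratory gate *Irf8* was 315 in cycling cells and 811 in the others, and *Irf4* 51.4 and 27.7. No *Fscn1* UMI was found in 79 of the 107 cycling cells and in 168 of the 299 others. Among these cells without *Fscn1*, *Irf8* was 170 in cycling cells and 332 in the others, and *Irf4* 49.9 and 24.5. The part of the *Fscn1* division in the values of the whole gate was not tested. The cycling cells were deeper in each gate, for example 21025.5 against 14697 median UMIs in cDC1.

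Other transcription factors of the same lineages were counted in lists. In Fn1/Ccr2 cells against macrophages, 4.99% of 7562 genes were at least 2-fold higher and 7.47% lower. Among the other DC factors, 2 of 13 were higher and 1 lower. Of 15 countable monocyte and macrophage factors, 2 were higher and 5 lower. Those of large fold included *Bhlhe41* (3.93 against 26.8), *Egr2* (59.1 against 16.8), and *Bhlhe40* (401 against 160.1). Between cDC1 and cDC2, 5 of 13 other DC factors were at least 2-fold lower in cDC1 and 1 was higher. *Zeb2*, which opposes the cDC1 fate, had 9.34 in cDC1 and 332 in cDC2, *Tcf4*, the E protein of pDC, 40.0 and 296, and *Zbtb18* 11.8 and 102. The median over these 13 was −0.09 on the log2 scale, beside −0.02 over all genes counted.

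In migratory DCs against cDC2, the factors of large fold included *Irf7* (168 against 26.8), *Id2*, an inhibitor of E proteins (1234 against 289), and *Cebpa* (12.7 against 52.6). In monocytes against macrophages they were *Bhlhe41* (4.83 against 26.8), *Id1* (30.2 against 7.42), *Irf7* (460.2 against 161), and *Nr1h3* (43.5 against 21.4). In cDC2 against macrophages *Bhlhe41* had 0.993 against 26.8, *Nr1h3* 1.99 against 21.4, and *Mitf* 3.97 against 31.7.

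Genes with the pattern most like that of a member over the 13 gates of at least 50 cells were ranked by Pearson's r of log2(level + 10) among 5683 genes, as a description over gates that share libraries. For *Zbtb46* they were *Siglecg* (r = 0.956), *Rnf157*, and *Sema7a*. *Irf8* was followed by *Phf11b* (0.911), *Cst3*, and *Adam19*, *Irf4* by *Mgl2* (0.930), *Clec4b1*, and *Ifitm6*, and *Batf3* by *H2-DMb1* (0.880), *Slamf8*, and *Scand1*. For *Maf* they were *Dennd1a* (0.924), *Smim15*, and *Rab3gap2*, and for *Cebpb* *Pxk* (0.936), *Por*, and *Ptpn12*. *Cebpe* had the least like neighbors, with *Txn2* (0.820), *Lyz1*, and *Upb1*, and *Spi1* the most, with *Pld4* (0.974), *Slc6a6*, and *Evi2a*. *Klf4* was nearest to *Rbms1* (0.899), *Gda*, and *Snx9*.

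The CD4/CD8-selected matrix, made from separate libraries, carried myeloid cells that passed the same gates, and the order of the members was read there side by side. Its cells came from mid-size tumors and the CD11c-selected cells from late-stage tumors, so tumor stage also differs between the matrices. Its 30 Fn1/Ccr2 cells had 158 (124 to 199) of *Irf4*, 115 (86.1 to 150) of *Batf3*, and 26.0 (13.5 to 45.5) of *Cebpe*, which is 12 UMIs, against 3.72, 8.60, and 0.609 in its 718 macrophages. Of these macrophages 397 came from 1 barcode run, and over the 6 runs the median was 10.6 for *Irf4* and 19.7 for *Batf3*. *Irf8* was 45.6 in these cells and 172 in macrophages. Lyve1/Cd209f macrophages, 60 cells, had 573 (515 to 637) of *Maf* and 41.4 (26.8 to 61.2) of *Irf4*, and Mrc1 low macrophages 43.7 and 3.64.

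In the same matrix 61 pDC had an *Irf8* level of 1643 (1539 to 1751), with 80.6 of *Irf4*, 71.9 of *Spi1*, and 5.26 of *Zbtb46*. CD8 T cells, 14060 cells, had 27.3 of *Irf8*, 35.9 of *Maf*, and 0.699 of *Spi1*, and no *Cebpe* UMI among 78699905. CD4 T cells without *Il2ra* had 340.0 of *Maf*, above the 121 of the macrophages of that matrix. Of these 485 T cells, 327 came from 1 barcode run. Over the 6 runs the median of *Maf* was 221 (116 to 428) in them and 151 (101 to 205) in the macrophages, so the runs overlap. Of the myeloid gates, cDC2 had no cell there, and cDC1 had 1, so the DC levels of the members rest on the CD11c-selected cells.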

How the data were processed

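CD11c-selected and CD4/CD8-selected cells were profiled on the 10x Genomics platform. For each selection the authors deposited 1 sparse matrix of raw UMI counts. The submitters' processing notes name Cell Ranger 3.0.2 and the build mm10, while annotation, strand setting, and cell filter were not given in the sources used here. Other processed objects were not used here. The counts carry no map from cells to the 12 samples, so each matrix was 1 sample, no genotype was tested, and no column of per-sample values was left unmapped (0).

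Only cells in which 200 genes or more were found entered the gates. Gates required set numbers of UMIs of surface marker genes and excluded markers of other lineages. Examples are at least 1 UMI each of *Xcr1* and *Clec9a* for cDC1, at least 2 of *Cd209a* and 1 of *Flt3* for cDC2, at least 2 of *Ccr7* and 1 of *Cd40*, *Cd80*, and *Cd200* together for migratory DCs, at least 5 of *Fn1* and 2 of *Ccr2* for Fn1/Ccr2 cells, and at least 3 of *Ly6c2* for monocytes. No doublet caller was run. Depth per barcode run of CD11c-selected cells was 13314063 to 24231244 UMIs, and CD4/CD8-selected cells held 135965765 UMIs in 22806 cells, with a median of 4361. UMIs were summed per gate and divided by the gate's total, with exact 95% Poisson, conditional binomial, and Clopper-Pearson intervals; where a count was 0 the limit is that of 3 UMIs. For 2-fold counts, genes with a level of at least 10 in 1 of 2 gates were used and 1 UMI was added. Symbols matched GENCODE M21 for 30431 genes, or 98.0%.

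The members, gates, lists, and contrasts were chosen with earlier results of these data known. Every member was named in every gate of at least 50 cells; the 3 genes most like each member and up to 4 other transcription factors per pair of gates were named by rank, of which some are not reported here. Genes for likeness had a level of at least 50 in 1 gate. Stricter gates, gates read after thinning to 3000 UMIs, means over cells, cells of at least 2000 UMIs, gates without the 5% of cells with most UMIs, and median-ratio scaling were tried. Chosen after seeing the data were a cDC2 gate without *Flt3*, the data without run 4, the wider neutrophil gate, and the splits by *Fscn1* and *Cebpe*. That cDC2 gate also allowed at most 1 UMI each of *Adgre1* and *Csf1r*, which the main cDC2 gate does not limit. The scripts were tested on simulated data. Python 3.11.15, numpy 2.4.6, scipy 1.17.1, pandas 2.3.3, and matplotlib 3.10.9 were used.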

Additional observations from a re-analysis of the deposited data

How the results depend on the processing

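Each of the 9 genes was recomputed in 1 pair of gates under up to 8 alternatives. Of 68 values, 55 moved by less than their counting interval, 13 moved by more, and none of the called differences turned over. The main log2 differences were 5.66 for *Zbtb46* (cDC2 over macrophages), 1.15 for *Batf3* and 4.31 for *Irf8* (cDC1 over cDC2), 5.24 for *Irf4* (cDC2 over cDC1), 6.18 for *Maf* and −0.05 for *Spi1* (macrophages over cDC2), 1.88 for *Cebpb* (monocytes over cDC2), 4.52 for *Cebpe* (Fn1/Ccr2 cells over macrophages), and 0.43 for *Klf4* (monocytes over macrophages). With gates read after thinning to 3000 UMIs they were 4.91 for *Zbtb46*, 6.55 for *Irf4*, 2.91 for *Cebpb*, 5.05 for *Cebpe*, 0.26 for *Spi1*, and 0.13 for *Klf4*. With stricter gates they were 6.54 for *Irf4*, 4.98 for *Cebpe*, and −0.28 for *Spi1*. *Cebpb* was 2.44 as a mean over cells, 2.21 without the 5% of cells with most UMIs, and 2.31 without run 4. *Spi1* was 0.35 with the cDC2 gate that drops *Flt3* and limits *Adgre1* and *Csf1r*. The interval of *Klf4* spans 0 under thinning, and that of *Spi1* excludes 0 under these 3 gates, below it with stricter gates and above it with the other two. *Maf* fell to 4.35 with the cDC2 gate that drops *Flt3* and limits *Adgre1* and *Csf1r*. The cause was not tested. Median-ratio scaling moved the median of all genes by at most 0.08 on the log2 scale and changed no call. *Maf* had no value under the stricter and thinned gates, where cDC2 held no *Maf* UMI. No paired analysis was possible because the barcodes name no sample, and leaving out a replicate could not be run for the same reason. Depth limits the cDC2, monocyte, and neutrophil gates most, which hold 1007189, 827855, and 87585 UMIs, and CD11c selection sets which cells were seen.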

Other observations

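Cells that fell in no gate, 5511 in the CD11c-selected matrix with a median of 3114 UMIs, also held UMIs of all 9 genes. *Irf8* was 258 in them and 243 over all cells, *Batf3* 36.3 and 40.3, *Irf4* 30.0 and 32.4, *Maf* 63.2 and 86.8, *Cebpe* 4.10 and 5.23, and *Spi1* 284 and 292. *Zbtb46* was 16.3 (15.0 to 17.6) in the ungated cells against 12.4 over all, and they held 41.0% of its UMIs, more than the migratory gate with 31.4%.

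Fibroblasts and epithelial cells also carried members of the group. The 71 fibroblasts had a *Klf4* level of 972 and the 265 epithelial cells one of 435, against 589 in macrophages, and *Cebpb* was 1123 and 1190.0. Endothelial cells, 24 in all, had 470 of *Klf4* and 29.2 of *Zbtb46*, from 13 UMIs. T cells of the CD11c-selected matrix, 62 cells, had 232 of *Irf8*, and 125 in the 54 of them without a UMI of *Flt3*, *Ccr7*, or *Fscn1*, against 27.3 in the CD8 T cells of the other matrix.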
